A study of Homo sapiens with 8 samples.

Results

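The promoters of cytokine, chemokine and interferon genes were followed in a promoter-wide count of oxidised DNA. These are the genes named IL plus digits with at most a letter A to F after (receptors left out), CCL or CXCL plus digits, and TNFSF plus digits. The type I and type III interferons (IFNA, IFNB, IFNE, IFNK, IFNL and IFNW), LIF, CSF1, CSF2, CSF3, TNF, LTA and LTB were added, on autosomes only. The rule uses names alone and no measured value. In the table of 19957 promoter windows, each 2001 bp wide and centred on an annotated gene start, 100 windows of 98 genes carried such a name. By position, IFNA8 and CCL15 were each given a pair of windows. The windows of a pair carry different Ensembl identifiers, so either may belong to another gene. A further 15 of the 113 genes that the rule finds in RefSeq had no window that could be named after them within 500 bp of their start. Among the 100 windows were 32 of interleukins and LIF, 23 of CC chemokines, 19 of interferons, 12 of CXC chemokines, 11 of the TNF superfamily and 3 of colony stimulating factors.

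DNA came from RPE1 cells, an hTERT-immortalised human line of retinal pigment epithelial origin. OGAP-seq enriches fragments that carry oxidative base lesions before sequencing, and an input library leaves the enrichment out. The 4 groups were NuMA (TDIF)-KD OGAP, NuMA (TDIF)-KD input, WT OGAP and WT input, with 2 libraries each. NuMA is a nuclear and mitotic spindle-pole protein. KD cells, which the labels mark as post-doxycycline, were depleted of it, and WT cells received no doxycycline, so the effects of the drug and of the depletion cannot be told apart. Whether the 2 libraries of a group stem from separate cultures is not stated in the labels; the p-values then cover only the scatter of these libraries, possibly technical. The counts are of DNA and not of RNA: they show neither the expression of a cytokine nor the loss of NuMA, and cell type markers could not be checked with them.

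Cytokines are small secreted or membrane-bound proteins through which cells signal injury and infection. Interleukins and colony stimulating factors steer immune cells and their precursors, chemokines guide cells along gradients (CC and CXC are named for the spacing of their first cysteines), and TNF superfamily ligands act on cell survival and inflammation. Interferons set the antiviral state, and many of these genes stay silent in epithelial cells until NF-kB, IRF or STAT factors switch them on. Guanine is the base most readily oxidised, above all within runs of guanines.

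Promoter sequences are shown for 6 of the genes whose values are given further on. CCL25, CCL26, IL9 and IL24 were higher in OGAP than in input in WT cells, TNFSF9 had the lowest p of OGAP against input in KD cells, and CCL18 had the lowest p of KD against WT in OGAP. Each sequence is the 250 bases before the gene's start in RefSeq (GRCh38.p14), written 5′ to 3′ on the gene's own strand, and capitals mark runs of 3 or more G or C. CCL25 lies on the plus strand at chr19:8052510-8052759, CCL26 on the minus strand at chr7:75789747-75789996, and IL9 on the minus strand at chr5:135895842-135896091. IL24 lies on the plus strand at chr1:206897193-206897442, TNFSF9 on the plus strand at chr19:6530776-6531025, and CCL18 on the plus strand at chr17:36064022-36064271.
CCL25: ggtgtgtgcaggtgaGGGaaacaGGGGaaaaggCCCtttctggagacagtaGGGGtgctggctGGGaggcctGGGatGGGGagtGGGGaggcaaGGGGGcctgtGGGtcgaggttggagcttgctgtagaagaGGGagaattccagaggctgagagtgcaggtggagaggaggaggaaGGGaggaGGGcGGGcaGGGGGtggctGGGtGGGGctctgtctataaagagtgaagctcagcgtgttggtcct
CCL26: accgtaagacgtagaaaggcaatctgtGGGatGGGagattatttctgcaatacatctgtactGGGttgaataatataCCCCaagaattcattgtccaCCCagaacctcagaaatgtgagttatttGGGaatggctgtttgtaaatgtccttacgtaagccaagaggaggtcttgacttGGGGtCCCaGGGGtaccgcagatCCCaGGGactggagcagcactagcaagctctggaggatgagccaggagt
IL9: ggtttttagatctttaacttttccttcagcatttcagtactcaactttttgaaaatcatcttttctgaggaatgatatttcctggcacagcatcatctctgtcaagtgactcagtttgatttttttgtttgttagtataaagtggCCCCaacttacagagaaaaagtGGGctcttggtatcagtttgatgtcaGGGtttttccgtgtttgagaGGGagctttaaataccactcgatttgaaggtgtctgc
IL24: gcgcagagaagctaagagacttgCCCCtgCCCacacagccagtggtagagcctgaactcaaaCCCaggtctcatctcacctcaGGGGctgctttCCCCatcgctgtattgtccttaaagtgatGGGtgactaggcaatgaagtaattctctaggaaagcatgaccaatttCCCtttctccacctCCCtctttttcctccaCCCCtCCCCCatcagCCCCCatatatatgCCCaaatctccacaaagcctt
TNFSF9: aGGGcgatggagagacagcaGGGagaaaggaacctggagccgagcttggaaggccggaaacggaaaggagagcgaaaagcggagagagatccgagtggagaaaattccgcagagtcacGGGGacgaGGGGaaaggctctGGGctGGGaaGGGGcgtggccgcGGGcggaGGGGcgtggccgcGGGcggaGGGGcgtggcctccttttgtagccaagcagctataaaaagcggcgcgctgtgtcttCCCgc
CCL18: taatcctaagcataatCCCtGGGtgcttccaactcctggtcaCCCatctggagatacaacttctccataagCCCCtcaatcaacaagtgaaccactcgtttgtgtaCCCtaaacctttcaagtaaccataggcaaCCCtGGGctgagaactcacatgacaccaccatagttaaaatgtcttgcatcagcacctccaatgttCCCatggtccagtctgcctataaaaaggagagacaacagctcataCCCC

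The 6 sequences differ widely in base composition. The CCL25 stretch holds 16 runs of G and 1 run of C on the strand shown and is 62.0% GC, whereas the IL9 stretch holds 3 runs of G and 1 of C and is 38.0% GC. In IL24 the runs lie on the other strand, with 10 runs of C and 2 of G. TNFSF9 has 23 CpG dinucleotides, CCL26 has 4, CCL25 has 3, IL9 and IL24 have 2 each, and CCL18 has 1. Across the 35097 promoter stretches of the same length in the table, the median held 11 runs of GGG or CCC and 11 CpG dinucleotides, and 99% held at least 1 such run. TATAAA, searched on both strands (TATAAA or TTTATA) and independent of the G and C runs, is present in the CCL25, IL9, TNFSF9 and CCL18 stretches and in 10.7% of all stretches. Of the 100 windows, 74 matched a sequence. These sequences reach past the gene's start, unlike the stretches above, and cover only part of the 2001 bp counted. Their median GC content was 47.2%, against 63.0% for the sequences of the 12872 windows of the whole table that matched one. Under 80% of windows matched, the limit set for this check, so the planned correction for GC was not run. The part of base composition in the values that follow was not tested.

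**Figure D1:**
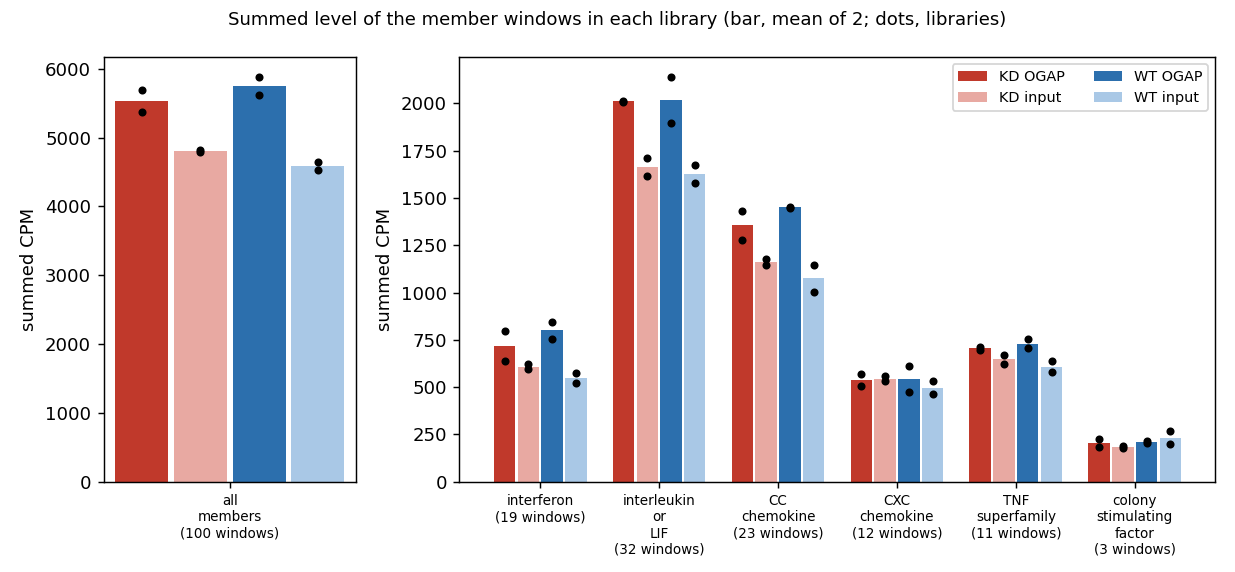
Summed level of the cytokine windows in each library, in CPM (normalised reads scaled to 1000000 promoter reads), for all 100 windows and by family; bars are the mean of 2 libraries and dots the libraries. The 2 OGAP libraries stand above the 2 inputs for all windows together in both KD (5377 and 5688 against 4794 and 4825) and WT (5627 and 5876 against 4646 and 4523).

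The cytokine windows held more of the promoter reads in OGAP than in input. Summed over all 100 windows, the level in CPM (normalised reads scaled to 1000000 promoter reads) was 5532.6 ± 220.2 in KD OGAP and 4809.1 ± 21.8 in KD input. It was 5751.5 ± 176.5 in WT OGAP and 4584.9 ± 87.0 in WT input (SD, n = 2 libraries each). In both states each OGAP library lay above each input library. The mean over all tested windows was also higher in OGAP. It was 58.4 and 58.7 CPM against 57.0 and 56.9 CPM in KD, and 60.5 and 60.6 CPM against 57.1 and 57.9 CPM in WT. The mean over the tested cytokine windows was 55.9 and 59.1 CPM against 49.7 and 50.2 CPM in KD. In WT it was 58.4 and 61.0 CPM against 48.3 and 47.0 CPM. With 2 libraries against 2, no exact test of a sum can reach 0.05, and none is given. The typical window was thinly covered: its median count was 29.5 and 25 reads in KD OGAP, 34.0 and 31.5 in KD input, 18.5 and 20.5 in WT OGAP, and 35.0 and 33.5 in WT input. In the inputs, the median cytokine window (49.0 and 48.0 CPM in KD, 47.5 and 43.5 CPM in WT) lay under the median of all tested windows (54.7 and 54.8 CPM in KD, 54.2 and 54.5 CPM in WT). In OGAP the medians were close, at 53.2 and 56.4 CPM in KD and 52.5 and 54.2 CPM in WT, against 55.9 and 54.2 CPM in KD and 54.0 and 52.8 CPM in WT for all windows.

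By family, the interferon windows summed to 717.2 ± 109.5 CPM in KD OGAP and 608.2 ± 16.8 CPM in KD input, and to 800.5 ± 63.6 CPM in WT OGAP and 547.0 ± 39.1 CPM in WT input (SD, n = 2). CC chemokines summed to 1356.4 ± 109.0 CPM in KD OGAP and 1161.4 ± 25 CPM in KD input, and to 1451.1 ± 4.5 CPM in WT OGAP and 1074.4 ± 101.3 CPM in WT input. In both families each OGAP library exceeded each input library in both states. The same held for interleukins with LIF (mean of OGAP against input 2011.3 and 1663.7 CPM in KD, 2016.0 and 1626.8 CPM in WT). It also held for the TNF superfamily (705.6 and 647.8 CPM in KD, 730.0 and 608.0 CPM in WT). Colony stimulating factors had overlapping OGAP and input libraries in both states. CXC chemokines did not separate: 537.4 ± 41.4 CPM in KD OGAP against 545.3 ± 19.5 CPM in KD input, and 543.2 ± 99.3 CPM in WT OGAP against 496.0 ± 48.4 CPM in WT input.

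**Figure D2:**
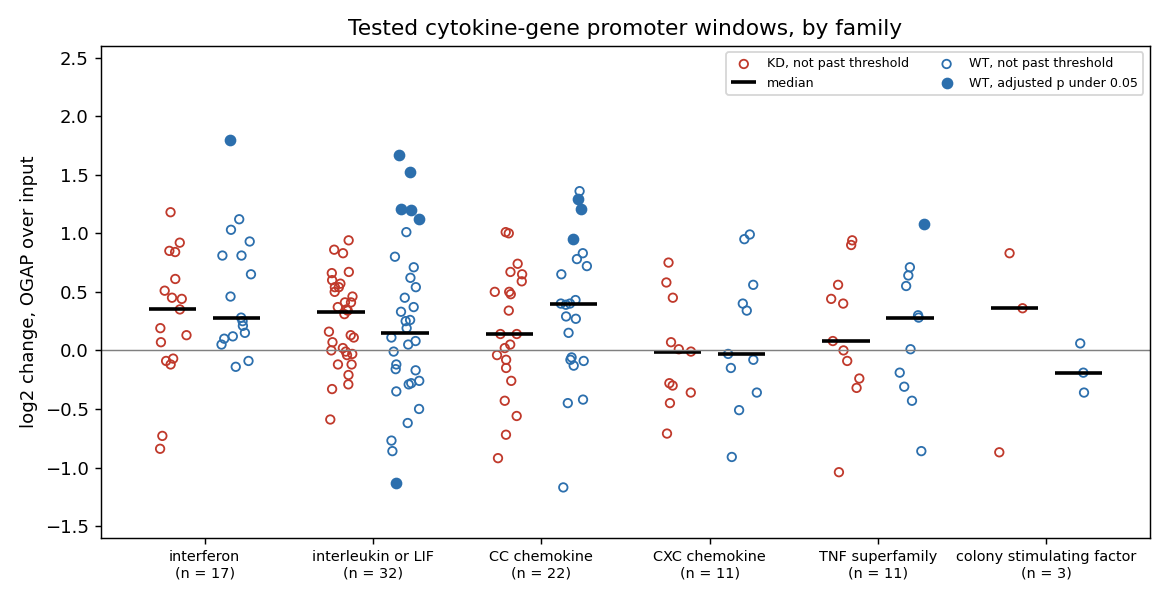
Log2 change of OGAP over input of the 96 tested windows, by family, in KD and in WT, one dot a window. Most windows lie above 0 in both states (62 of 96 in each), and 11 windows passed the threshold, all in WT.

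In KD cells, no cytokine window passed the test of OGAP against input. By edgeR's quasi-likelihood test with Benjamini-Hochberg adjustment over all 17130 tested windows, 0 of the 96 tested cytokine windows passed an adjusted p of 0.05, against a background of 0.736% of all windows (0.63% higher and 0.105% lower in OGAP). At an unadjusted p under 0.05 there were 17 (17.7%, against 12.6% of all windows), and DESeq2 also called 0. The median log2 change of the cytokine windows was 0.15, against 0.03 over all tested windows, and 62 of 96 changes (64.6%) were above 0, against 52.5% of all. In 29 windows (30.2%) both OGAP libraries lay above both inputs, against 24.3% of all windows, and in 14 (14.6%) both lay below, against 19.6%.

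The KD window of lowest p was TNFSF9, which encodes 4-1BB ligand, a co-stimulatory signal for T cells. It had 57.7 and 56.4 CPM in KD OGAP and 118 and 117 CPM in KD input, for a log2 change of -1.04 ± 0.31 (SE, edgeR adjusted p = 0.0818). Both KD OGAP libraries were low and near to each other, though the change did not pass the threshold. On the other side stood CCL26, at 91.9 and 92.5 CPM in KD OGAP and 43.2 and 48.8 CPM in KD input (log2 change 1.0 ± 0.33, edgeR adjusted p = 0.127). IL17C, a cytokine made by epithelia, had 121 and 111 CPM in KD OGAP and 66.3 and 64.0 CPM in KD input (0.83 ± 0.29, edgeR adjusted p = 0.165). Neither passed, although the libraries did not overlap. CSF1, the growth factor of macrophages, had 37.8 and 40.6 CPM in KD OGAP and 70.6 and 73.1 CPM in KD input, with an edgeR adjusted p of 0.285. CCL28, a chemokine of mucosal surfaces, had 37.8 and 27.1 CPM in KD OGAP and 56.2 and 68.5 CPM in KD input, with an edgeR adjusted p of 0.309.

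In WT cells, 11 of the 96 cytokine windows (11.5%) passed in the same fit, against 13.7% of all windows: 10 were higher in OGAP than in input (10.4%, against 9.25% of all) and 1 was lower (1.04%, against 4.45%). The windows higher in WT OGAP were those of IL34, IL9, CCL25, IL31, CCL26, TNFSF14, IFNA21, IL24, IL17F and CCL22, and the lower one was that of LIF. The count of higher calls lay near the background. The median log2 change was 0.26, against -0.02 over all tested windows, with 62 of 96 changes (64.6%) above 0, against 48.7% of all. In 32 windows (33.3%) both OGAP libraries lay above both inputs, against 28.5% of all windows, and in 13 (13.5%) both lay below, against 28%. DESeq2 called 5 of the 11.

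**Figure D3:**
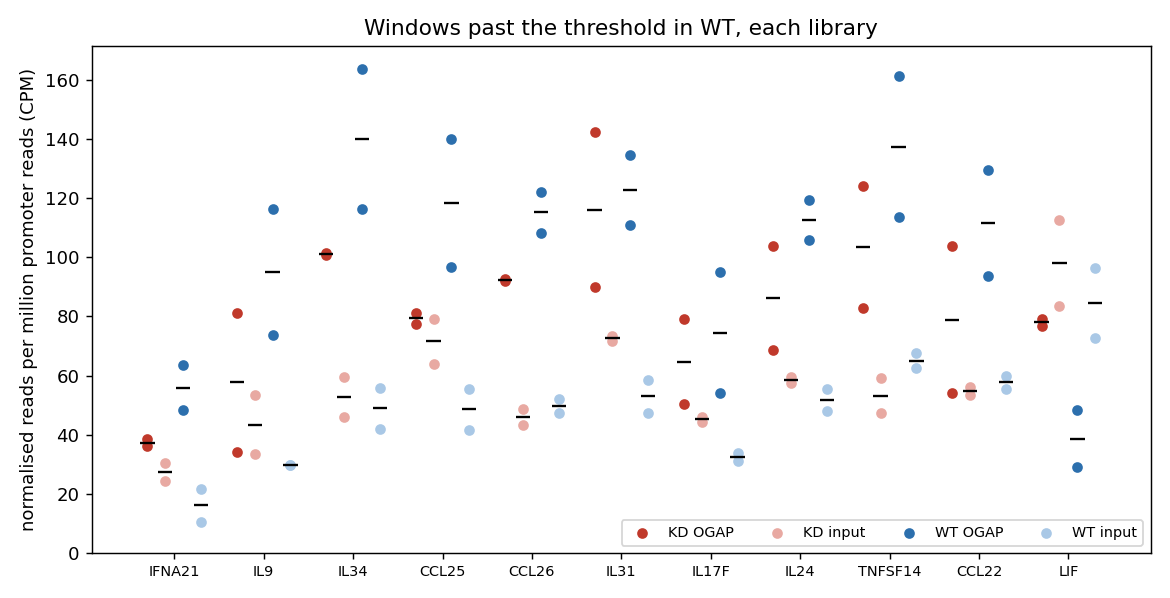
Normalised promoter reads (CPM) in each of the 8 libraries at the 11 windows that passed the threshold in WT; each dot is a library. The WT OGAP dots lie above the WT inputs in 10 windows, by up to 116 and 164 against 42.0 and 55.8 at IL34, and below them at LIF.

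Among the interleukins, IL34 had the lowest p of all cytokine windows in WT. IL34 binds the CSF1 receptor and in mice maintains microglia and skin macrophages, and its window (ENSG00000157368) lies at chr16:70578894-70580894 in hg38. In KD cells it had 101 and 102 CPM in OGAP and 46.1 and 59.4 CPM in input (log2 change 0.94 ± 0.32, edgeR adjusted p = 0.139). It had 116 and 164 CPM in WT OGAP and 42.0 and 55.8 CPM in WT input (1.52 ± 0.31, edgeR adjusted p = 0.000309). No OGAP library overlapped an input in either state. Of the 11, only the IL34 window kept its call under every alternative that gave an adjusted p, DESeq2 and each left-out library included.

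IL9, a T cell cytokine that acts on mast cells, had overlapping libraries in KD, at 34.2 and 81.3 CPM in OGAP and 53.3 and 33.5 CPM in input. In WT it had 73.8 and 116 CPM in OGAP and 29.8 and 29.8 CPM in input (log2 change 1.67 ± 0.39, edgeR adjusted p = 0.00136). IL31, a cytokine known for itch, had 90.1 and 142 CPM in KD OGAP against 73.5 and 71.6 CPM in KD input, and 111 and 135 CPM in WT OGAP against 47.5 and 58.4 CPM in WT input (WT log2 change 1.21 ± 0.31, edgeR adjusted p = 0.00439). IL24, of the IL10 family, did not pass in KD, at 68.5 and 104 CPM in OGAP and 57.6 and 59.4 CPM in input, with no overlap. In WT it had 119 and 106 CPM in OGAP and 55.6 and 48.0 CPM in input (1.12 ± 0.33, edgeR adjusted p = 0.0128), on the same side and again with no overlap. IL17F, an inflammatory cytokine of T cells, had 50.5 and 79.0 CPM in KD OGAP against 46.1 and 44.2 CPM in KD input, and 54.0 and 95.1 CPM in WT OGAP against 31.2 and 33.7 CPM in WT input (WT log2 change 1.20 ± 0.39, edgeR adjusted p = 0.0263). The call for IL9 was lost without WT OGAP replicate 2 (edgeR adjusted p = 0.0908). That for IL31 was lost without WT OGAP replicate 2 (0.0756) or WT input replicate 1 (0.0624), and that for IL24 without WT OGAP replicate 1 (0.0888) or WT input replicate 2 (0.125). IL17F lost its call without WT OGAP replicate 2 (0.424), WT input replicate 1 (0.126) or WT input replicate 2 (0.127), and IL24 and IL17F also with DESeq2 (adjusted p = 0.0705 and 0.127).

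LIF, which holds stem cells in an undifferentiated state and is related to IL6, was the only cytokine window that passed the threshold as lower in WT OGAP. In KD cells it had 79.3 and 76.8 CPM in OGAP and 83.5 and 113 CPM in input (log2 change -0.33 ± 0.31, edgeR adjusted p = 0.718). It had 48.3 and 29.1 CPM in WT OGAP and 96.3 and 72.6 CPM in WT input (-1.13 ± 0.37, edgeR adjusted p = 0.0267). The WT OGAP libraries were the lowest of the 8. The WT call was lost without WT OGAP replicate 2 (edgeR adjusted p = 0.276), without WT input replicate 1 (0.173) and with DESeq2 (0.116). Of the 32 interleukin and LIF windows none passed in KD, by edgeR or DESeq2, where 0.736% of all windows passed by edgeR. In WT 5 passed as higher and 1 as lower, where 9.25% of all windows passed as higher and 4.45% as lower. This family had a median log2 change of 0.33 in KD and 0.15 in WT.

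The other interleukins named by rule showed no call. IL1B, the inflammasome cytokine, had 72.1 and 76.8 CPM in KD OGAP against 60.5 and 56.4 CPM in KD input, and 56.8 and 92.5 CPM in WT OGAP against 70.5 and 73.9 CPM in WT input. IL1A, the alarmin, had 28.8 and 38.4 CPM in KD OGAP against 44.6 and 36.6 CPM in KD input, and 34.1 and 29.1 CPM in WT OGAP against 47.5 and 29.8 CPM in WT input. The libraries of both genes overlapped between OGAP and input except for IL1B in KD. IL10, which restrains inflammation, had 55.9 and 65.5 CPM in KD OGAP against 54.7 and 24.4 CPM in KD input, and 51.1 and 44.9 CPM in WT OGAP against 63.7 and 44.1 CPM in WT input. Its KD inputs were wide apart, and only in KD did its OGAP libraries lie above both inputs. IL15, which sustains natural killer cells, had 75.7 and 24.8 CPM in KD OGAP against 40.3 and 30.5 CPM in KD input, and 22.7 and 42.3 CPM in WT OGAP against 51.5 and 67.5 CPM in WT input. Its WT OGAP libraries lay below the WT inputs without passing (-0.86 ± 0.44, edgeR adjusted p = 0.188).

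Of the 22 tested CC chemokine windows none passed in KD, by edgeR or DESeq2, where 0.736% of all windows passed by edgeR. In WT 3 passed as higher in OGAP, against 9.25% of all windows. Their median log2 change was 0.14 in KD and 0.39 in WT. CCL25, which draws T cells to the gut and thymus, had overlapping KD libraries, at 77.5 and 81.3 CPM in OGAP and 79.2 and 64.0 CPM in input. In WT it had 96.6 and 140.0 CPM in OGAP and 55.6 and 41.5 CPM in input, with no overlap (log2 change 1.29 ± 0.32, edgeR adjusted p = 0.00336). CCL26 (eotaxin-3), an eosinophil attractant, had 122 and 108 CPM in WT OGAP and 47.5 and 51.9 CPM in WT input (1.21 ± 0.32, edgeR adjusted p = 0.00641), with no overlap, as in KD. CCL22, a ligand of CCR4, had 54.1 and 104 CPM in KD OGAP against 56.2 and 53.3 CPM in KD input, and 93.7 and 129 CPM in WT OGAP against 55.6 and 59.7 CPM in WT input (WT log2 change 0.95 ± 0.33, edgeR adjusted p = 0.0368). CCL25 lost its call without WT OGAP replicate 2 (edgeR adjusted p = 0.129) or WT input replicate 2 (0.0894), and CCL26 without WT OGAP replicate 1 (0.0590) or WT input replicate 1 (0.0559). CCL22 lost it without WT OGAP replicate 2 (0.323), WT input replicate 1 (0.150) or WT input replicate 2 (0.139), with upper quartile scaling (0.0519) and with DESeq2 (0.166).

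CCL24 (eotaxin-2), at 162 and 92.5 CPM in WT OGAP and 80.02 and 62.3 CPM in WT input, missed the threshold with an edgeR adjusted p of 0.0535, and passed without WT OGAP replicate 2 (0.0217), without overlapping windows (0.0490) and with only the 4 WT libraries (0.0423). CCL2, the monocyte attractant, had 66.7 and 47.4 CPM in KD OGAP against 54.7 and 56.4 CPM in KD input, and 73.8 and 50.2 CPM in WT OGAP against 52.9 and 58.4 CPM in WT input. CCL5 (RANTES), which attracts T cells and monocytes, had 32.4 and 58.7 CPM in KD OGAP against 53.3 and 45.7 CPM in KD input, and 59.6 and 63.4 CPM in WT OGAP against 43.4 and 35.0 CPM in WT input. Only CCL5 in WT was without overlap among these 4 pairs, and it did not pass (edgeR adjusted p = 0.281). CCL18, a chemokine of macrophages and dendritic cells, had 43.2 and 76.8 CPM in KD OGAP against 34.6 and 50.3 CPM in KD input, and 11.4 and 21.1 CPM in WT OGAP against 35.3 and 38.9 CPM in WT input. The WT OGAP libraries lay below the WT inputs, and the change did not pass (-1.17 ± 0.54, edgeR adjusted p = 0.133).

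No CXC chemokine window passed in either state (0 of 11 tested by edgeR and by DESeq2). By edgeR, 0.736% of all windows passed in KD and 13.7% in WT, so a count of 0 among 11 says little. CXCL8 (IL8), the neutrophil attractant, had 30.6 and 27.1 CPM in KD OGAP against 31.7 and 39.6 CPM in KD input, and 22.7 and 23.8 CPM in WT OGAP against 35.3 and 31.1 CPM in WT input. Its OGAP libraries lay below the inputs in both states, with log2 changes of -0.30 ± 0.48 in KD and -0.51 ± 0.53 in WT, each smaller than its SE. CXCL10, an interferon-induced T cell attractant, had 34.2 and 36.1 CPM in KD OGAP and 50.4 and 35.0 CPM in KD input. In WT it had 62.5 and 2.64 CPM in OGAP, from 22 reads and 1 read, and 40.7 and 24.6 CPM in input. Its WT value therefore rests on a single library: the log2 change was -0.03 ± 0.53, but -3.54 without WT OGAP replicate 1 (edgeR adjusted p = 0.0209). CXCL17, an attractant of myeloid cells at mucosa, also had WT OGAP libraries far apart, at 139 and 47.6 CPM, against 61.0 and 32.4 CPM in WT input. It did not pass (0.99 ± 0.37, edgeR adjusted p = 0.0582), and passed without WT OGAP replicate 2 (0.00548), without WT input replicate 1 (0.0338) and with only the 4 WT libraries (0.0437). CXCL14, a chemokine of epithelia, had 84.7 and 63.2 CPM in KD OGAP against 66.3 and 83.8 CPM in KD input, and 22.7 and 47.6 CPM in WT OGAP against 61.0 and 72.6 CPM in WT input. Its libraries overlapped in KD and not in WT, where it did not pass (-0.91 ± 0.40, edgeR adjusted p = 0.110).

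Of the 17 tested interferon windows, 1 passed as higher in WT OGAP, against 9.25% of all windows. Changes above 0 numbered 12 in KD, against 52.5% of all windows, and 15 in WT, against 48.7%. Interferon windows had a median log2 change of 0.35 in KD and 0.28 in WT. The window that passed in WT was that of IFNA21, a type I interferon. It had 36.0 and 38.4 CPM in KD OGAP and 30.2 and 24.4 CPM in KD input. In WT it had 48.3 and 63.4 CPM in OGAP and 21.7 and 10.4 CPM in input (1.80 ± 0.50, edgeR adjusted p = 0.00932). The counts behind it were small, at 17 and 24 reads in WT OGAP and 16 and 8 in WT input. The call was lost without WT OGAP replicate 2 (edgeR adjusted p = 0.108), without WT input replicate 2 (0.172) and with DESeq2 (0.0514). The IFNA genes are close copies of each other, as are IFNL2 and IFNL3, so that their reads may be divided among them and each single value is uncertain.

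IFNB1, the interferon induced first in most infected cells, had 25.2 and 33.9 CPM in KD OGAP and 53.3 and 51.8 CPM in KD input. Its WT levels were 36.9 and 26.4 CPM in OGAP and 28.5 and 23.4 CPM in input. The KD OGAP libraries lay below the KD inputs (log2 change -0.84 ± 0.45, edgeR adjusted p = 0.438), while the WT libraries overlapped (0.28 ± 0.50). IFNL1, a type III interferon of epithelia, had 59.5 and 72.2 CPM in KD OGAP against 59.1 and 80.7 CPM in KD input, and 108 and 81.9 CPM in WT OGAP against 52.9 and 46.7 CPM in WT input (WT log2 change 0.93 ± 0.34, edgeR adjusted p = 0.0545). Only the WT libraries were without overlap. IFNA14 had 43.2 and 76.8 CPM in KD OGAP against 28.8 and 33.5 CPM in KD input, and 54.0 and 52.8 CPM in WT OGAP against 21.7 and 27.2 CPM in WT input. Neither state showed an overlap, and the WT change of 1.12 ± 0.45 did not pass (edgeR adjusted p = 0.0851). IFNA8 was not tested, with 0 reads in one of its windows and 1 read in the other over all 8 libraries. Both windows overlap each other almost wholly, and how shared reads were counted is not given. Their counts therefore do not show whether this promoter was covered.

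Of the 11 tested TNF superfamily windows, 1 passed in WT, where 13.7% of all windows passed. TNFSF14 (LIGHT), a ligand of the lymphotoxin beta receptor and HVEM, had 82.9 and 124 CPM in KD OGAP and 59.1 and 47.2 CPM in KD input (log2 change 0.94 ± 0.31, edgeR adjusted p = 0.135). Its WT levels were 114 and 161 CPM in OGAP and 62.4 and 67.5 CPM in input (1.08 ± 0.30, edgeR adjusted p = 0.00911). Neither state showed an overlap. The WT call was lost without WT OGAP replicate 2 (edgeR adjusted p = 0.196), WT input replicate 1 (0.0702) or WT input replicate 2 (0.0635), and with DESeq2 (0.0628). TNF itself, a central inflammatory cytokine, had 82.9 and 90.3 CPM in KD OGAP against 67.7 and 96.0 CPM in KD input, and 90.9 and 95.1 CPM in WT OGAP against 48.8 and 64.9 CPM in WT input. Its WT libraries did not overlap, yet the change of 0.71 ± 0.33 did not pass (edgeR adjusted p = 0.134). TNFSF10 (TRAIL), a ligand that triggers cell death, had 45.0 and 36.1 CPM in KD OGAP against 53.3 and 33.5 CPM in KD input, and 42.6 and 79.3 CPM in WT OGAP against 38.0 and 45.4 CPM in WT input. Both pairs overlapped. TNFSF13 (APRIL), which sustains plasma cells, had 37.8 and 63.2 CPM in KD OGAP against 33.1 and 42.6 CPM in KD input, and 22.7 and 23.8 CPM in WT OGAP against 48.8 and 36.3 CPM in WT input. Its WT OGAP libraries lay below the WT inputs without passing (-0.86 ± 0.49, edgeR adjusted p = 0.240).

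Among the 3 colony stimulating factors none passed in either state, by edgeR or by DESeq2. The edgeR shares of all windows were 0.736% in KD and 13.7% in WT. CSF2 (GM-CSF), which drives granulocytes and macrophages, had 88.3 and 85.8 CPM in KD OGAP against 47.5 and 50.3 CPM in KD input, and 96.6 and 79.3 CPM in WT OGAP against 71.9 and 96.0 CPM in WT input. The KD libraries did not overlap (log2 change 0.83 ± 0.33, edgeR adjusted p = 0.226) and the WT libraries did. All 10 windows that passed as higher in WT OGAP had a log2 change above 0 in KD as well. The matching share over all windows that passed as higher in WT was not taken, so this is not shown to be particular to cytokine windows. Over the 96 windows the changes in KD and in WT had the same sign in 64 (66.7%, against 67.7% of all windows). Pearson's r was 0.36 and Spearman's rho 0.36 over these 96 windows, and 0.54 and 0.50 over all 17130; windows share libraries and are not independent.

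**Figure D4:**
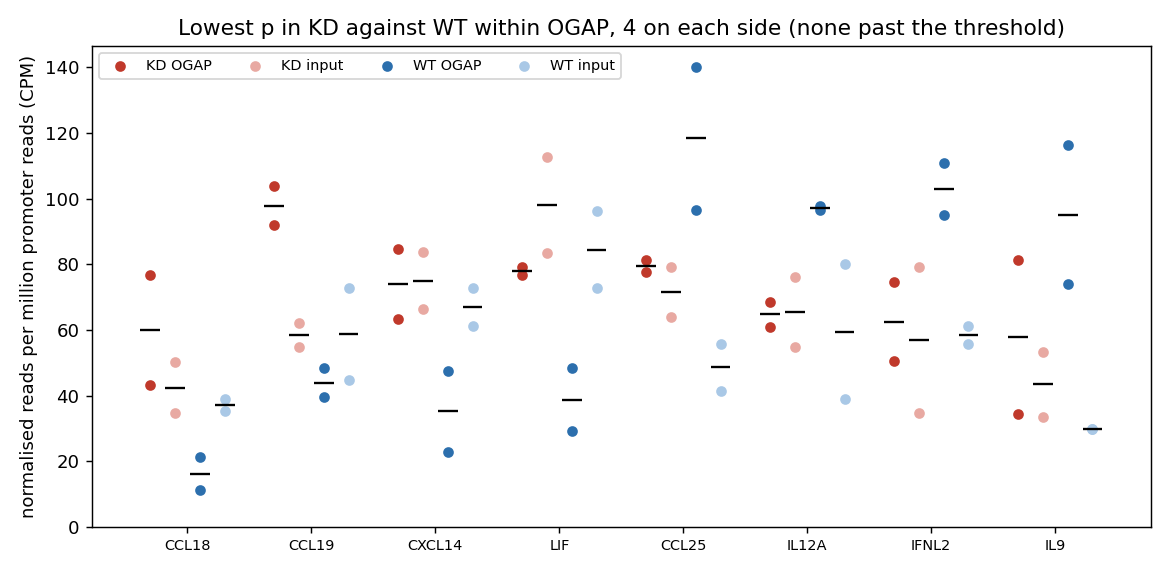
Normalised promoter reads (CPM) in each of the 8 libraries at the 8 windows of lowest p in KD against WT within OGAP, 4 on each side; each dot is a library. At CCL18 the KD OGAP libraries (43.2 and 76.8) lie above the WT OGAP libraries (11.4 and 21.1), and none of the 8 windows passed the threshold.

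Between KD and WT within OGAP, the comparison that asks whether a window's share of the pull-down differs between the states, no cytokine window passed. Each library was scaled to its own promoter reads, so a change common to all promoters would not show, here or in the other comparisons. By edgeR with Benjamini-Hochberg adjustment, 0 of 96 were called, against 0.035% of all windows (0.0175% in each direction), with 7 (7.29%, against 10.6%) at an unadjusted p under 0.05, and DESeq2 called 0. The median log2 change was -0.09, against 0.01 over all tested windows, and 42 of 96 changes (43.8%) were above 0, against 50.8% of all. In 16 windows (16.7%, against 19.6% of all) both KD OGAP libraries lay above both WT OGAP libraries, and in 18 (18.8%, against 19.9%) both lay below.

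The lowest p belonged to CCL18, with 43.2 and 76.8 CPM in KD OGAP and 11.4 and 21.1 CPM in WT OGAP. Only 4 and 8 reads stood behind the WT OGAP values, against 24 and 34 in KD OGAP. The log2 change was 1.84 ± 0.53 (edgeR adjusted p = 0.202), and the inputs stood at 34.6 and 50.3 CPM in KD and 35.3 and 38.9 CPM in WT. CCL19, which guides dendritic and T cells to lymph nodes, had 91.9 and 104 CPM in KD OGAP and 48.3 and 39.6 CPM in WT OGAP (1.15 ± 0.38, edgeR adjusted p = 0.261). LIF had 79.3 and 76.8 CPM in KD OGAP and 48.3 and 29.1 CPM in WT OGAP (1.02 ± 0.38, edgeR adjusted p = 0.332). CXCL14 had 84.7 and 63.2 CPM in KD OGAP and 22.7 and 47.6 CPM in WT OGAP (1.07 ± 0.41, edgeR adjusted p = 0.339). At all 4 windows the libraries of KD OGAP and WT OGAP did not overlap, and none passed.

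On the other side, IFNL2 had 50.5 and 74.5 CPM in KD OGAP and 111 and 95.1 CPM in WT OGAP (log2 change -0.73 ± 0.36, edgeR adjusted p = 0.448). IL9 had 34.2 and 81.3 CPM in KD OGAP and 73.8 and 116 CPM in WT OGAP, with overlap (-0.76 ± 0.38, edgeR adjusted p = 0.469). IL12A, a subunit of IL12 and IL35, had 68.5 and 61.0 CPM in KD OGAP and 96.6 and 97.8 CPM in WT OGAP (-0.58 ± 0.35, edgeR adjusted p = 0.566). Of these only IL9 had overlapping libraries. CCL25 had a log2 change of -0.58 ± 0.32 (edgeR adjusted p = 0.519).

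Within the inputs, where no window of the whole table was called (0%), 0 of 96 cytokine windows passed by edgeR and by DESeq2, with 3 (3.12%, against 4.41%) at an unadjusted p under 0.05. The median log2 change of KD against WT was 0.10, against -0.01 over all windows, and 60 of 96 changes (62.5%) were above 0, against 48.9% of all. In 23 windows (24%, against 17.3%) both KD inputs lay above both WT inputs, and in 13 (13.5%, against 17.7%) both lay below. The 3 were CSF2 with 47.5 and 50.3 CPM in KD input and 71.9 and 96.0 CPM in WT input, IFNB1 with 53.3 and 51.8 CPM in KD input and 28.5 and 23.4 CPM in WT input, and IFNA10, an interferon alpha, with 60.5 and 15.2 CPM in KD input and 5.42 and 25.9 CPM in WT input. IFNA10 rests on 42 and 10 reads in KD input and 4 and 20 in WT input, with overlap. Among positive changes, the next lowest p belonged to CCL25 (log2 change 0.56 ± 0.32) and to TNFSF15, also called TL1A, with 69.1 and 47.2 CPM in KD input and 28.5 and 44.1 CPM in WT input (0.68 ± 0.39). Among negative changes it belonged to IL15 (-0.74 ± 0.40), IL17C (-0.53 ± 0.29) and the type I interferon IFNW1, with 11.5 and 39.6 CPM in KD input and 40.7 and 46.7 CPM in WT input (-0.78 ± 0.45). None of these 5 had overlapping inputs. The edgeR adjusted p was 0.999 for each window named here. These inputs are also the denominators of the OGAP over input values, so that for IFNB1 and CSF2 the KD and WT denominators stood apart.

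The interaction, a test of whether the ratio of OGAP to input differs between KD and WT, gave no call either: 0 of 96 by edgeR, against 0.00584% of all windows, with 6 (6.25%, against 8.14%) at an unadjusted p under 0.05 and 0 by DESeq2. Its median was -0.17 on the log2 scale, against 0.02 over all windows. The lowest p was that of CCL25, at -1.14 ± 0.45 (edgeR adjusted p = 0.502), and the next that of CCL18, at 1.65 ± 0.68 (edgeR adjusted p = 0.525). IL9 stood at -1.30 ± 0.55 and CCL19 at 1.16 ± 0.51. IL15 stood at 1.40 ± 0.61, TNFSF13 at 1.26 ± 0.65, IFNL1 at -1.02 ± 0.48 and IFNA21 at -1.36 ± 0.70. The calls found in WT and missing in KD were therefore not shown to differ between the states: for none of the 11 did the interaction pass.

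**Figure D5:**
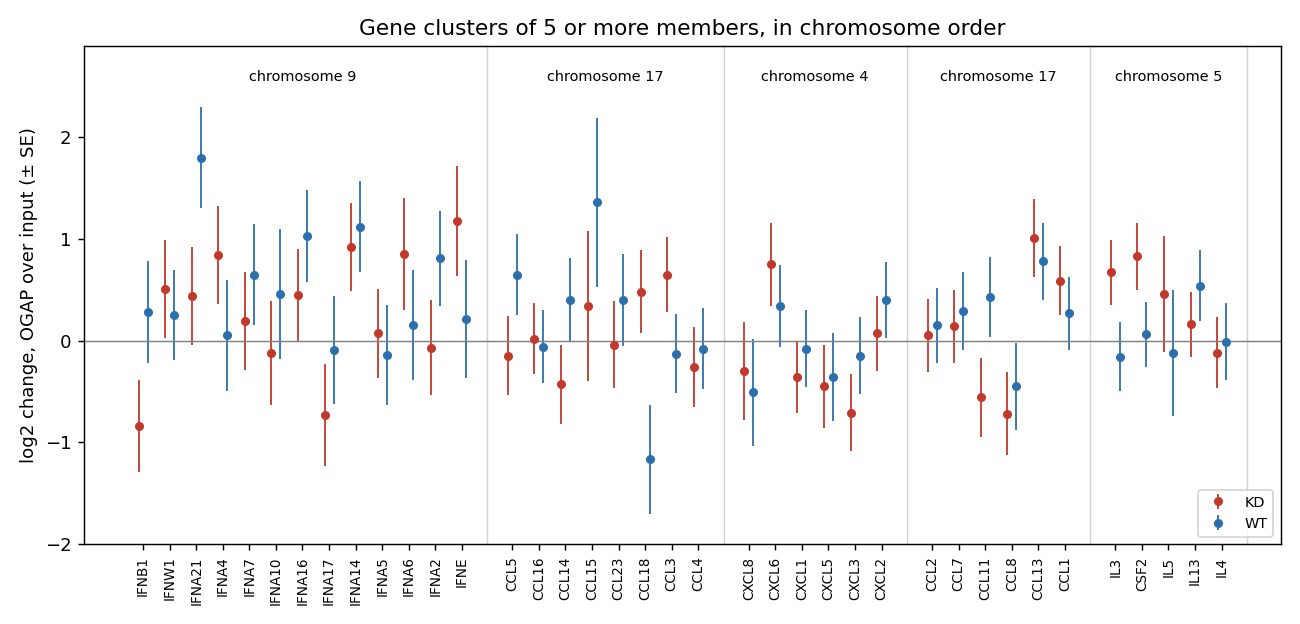
Log2 change of OGAP over input (± SE) in KD and in WT at the tested windows of gene clusters with 5 or more members, in chromosome order. The interferon cluster of chromosome 9 and the CC chemokine clusters of chromosome 17 hold values on both sides of 0, and a single window, IFNA21, passed the threshold.

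Many of these genes lie in clusters of copies. On chromosome 9, 15 windows from IFNB1 to IFNE lay between positions 21076964 and 21483314. Both IFNA8 windows, almost without reads, are among these 15 and were not tested. Of the 13 tested, 9 had a log2 change above 0 in KD (median 0.44, range -0.84 to 1.18) and 11 in WT (median 0.28, range -0.14 to 1.80). The mean level of these 15 windows was 27.7 and 38.5 CPM in KD OGAP and 28.8 and 26.3 CPM in KD input, and 30.7 and 35.8 CPM in WT OGAP and 20.9 and 24.6 CPM in WT input, so that OGAP and input overlapped in KD and not in WT. The 6 windows of the CXC cluster on chromosome 4 (CXCL8, CXCL6, CXCL1, CXCL5, CXCL3 and CXCL2) had median log2 changes of -0.33 in KD and -0.12 in WT. The 6 windows from CCL2 to CCL1 on chromosome 17 had medians of 0.10 in KD and 0.28 in WT, and the 8 tested windows from CCL5 to CCL4 had -0.01 in KD and 0.17 in WT. The 5 windows of IL3, CSF2, IL5, IL13 and IL4 on chromosome 5 had 0.46 in KD and -0.01 in WT. The 3 of LTA, TNF and LTB on chromosome 6 had 0.08 in KD and 0.30 in WT. The IL5 window overlaps another window of the table and its value is uncertain. The same holds for the tested CCL15 window, which enters the medians from CCL5 to CCL4. Its WT log2 change of 1.36 ± 0.83 rests on 8 and 6 reads in WT OGAP and 9 and 2 in WT input.

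Other genes of cytokine signalling were counted from 4 lists, drawn up with earlier results of these data known. In KD, in KD against WT within OGAP or input and in the interaction, no window of the 4 lists passed by edgeR. Of all windows, 0.736% passed in KD and 0.035% in KD against WT within OGAP. Within input 0% passed, and in the interaction 0.00584%. Of 32 tested receptor windows, 2 passed as higher and 1 as lower in WT OGAP. These counts were no higher in share than the 9.25% higher and 4.45% lower of all windows. TNFRSF10A, a receptor of TRAIL, was higher, with read counts of 58 and 36 for WT OGAP and 25 and 30 for WT input (log2 change 1.82 ± 0.33, edgeR adjusted p = 4.98e-05), and CCR1, a receptor of several CC chemokines, was also higher (1.09 ± 0.36, edgeR adjusted p = 0.0270). IL6R, the IL6 receptor, was lower, with read counts of 14 and 11 for WT OGAP and 61 and 50 for WT input (-1.10 ± 0.39, edgeR adjusted p = 0.0477). Of 22 tested windows of NF-kB and nucleic-acid sensing genes, 2 passed as higher in WT OGAP, near the 9.25% of all windows. They were the adaptor TRAF2 (1.07 ± 0.29, edgeR adjusted p = 0.00708) and STING1, the adaptor of cytosolic DNA sensing (1.03 ± 0.31, edgeR adjusted p = 0.0139). None of 19 JAK, STAT, IRF and SOCS windows passed in WT, against 13.7% of all windows, and their median log2 change there was -0.21.

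Of 18 tested interferon-stimulated gene windows, 6 passed as higher in WT OGAP (IFI35, IFIT3, IFIT1, IFI6, USP18 and GBP1). None passed as lower, and of all windows 9.25% passed as higher and 4.45% as lower. The median of the 18 was 0.48 in KD and 0.50 in WT. IFI35 had read counts of 50 and 52 for WT OGAP and 31 and 44 for WT input (1.49 ± 0.31, edgeR adjusted p = 0.000388), and IFIT3, one of the antiviral IFIT proteins, had a log2 change of 1.37 ± 0.34 (edgeR adjusted p = 0.00348). The list was not tested as a set. Among the 11 windows called on the 4 lists, TNFRSF10A and IFI35 kept their call under every alternative run. The others lost it in some. IFIT3 lost it without WT OGAP replicate 2 (edgeR adjusted p = 0.0510), IFIT1 without that library (0.188) or WT input replicate 2 (0.147), and IFI6 without WT OGAP replicate 1 (0.102) or WT input replicate 2 (0.275). GBP1 and USP18 lost it without WT OGAP replicate 2 (0.195 and 0.109), WT input replicate 1 (0.0844 and 0.0649) or WT input replicate 2 (0.116 and 0.133). STING1 and TRAF2 lost it without WT OGAP replicate 1 (0.147 and 0.0715) or WT input replicate 1 (0.127 and 0.0898), CCR1 without either of these (0.342 and 0.0931) or WT input replicate 2 (0.145). IL6R lost its call without either WT OGAP library (0.0745 and 0.270), either WT input (0.210 and 0.0816) or either KD input (0.0525 and 0.0536). With DESeq2, CCR1, GBP1, IFI6, IFIT1, IL6R, STING1 and USP18 lost theirs (adjusted p from 0.0766 for STING1 to 0.171 for IL6R).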

How the data were processed

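Per the submitters' processing notes, reads were handled with BWA 0.7.17-r1188, featureCounts, bedtools and MACS2, on build hg38. The deposited table holds whole-number read counts per promoter window, made by the authors, for 8 libraries. It carries Ensembl identifiers without symbols. Windows were named by position where exactly 1 protein-coding RefSeq gene (GRCh38.p14) started within 500 bp of the centre on the same strand. This named 16176 of 19957 windows (81.1%), against 1.11% after a shift of 200 kb.

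Promoter reads per library came to 560174 and 449833 in KD OGAP, 683567 and 645276 in KD input, 368593 and 397173 in WT OGAP, and 727901 and 771138 in WT input. Replicates differed by more than sampling noise in every group. Windows kept by filterByExpr (17130) were fitted in R 4.3.3 with edgeR 4.0.16: quasi-likelihood test, TMM scaling, 4 group means over all 8 libraries, 4 residual degrees of freedom. The fit added 98.4 prior degrees of freedom, so the p-values rest mainly on a spread shared across windows. An adjusted p is a Benjamini-Hochberg value over all tested windows, with a threshold of 0.05. SE is the log2 change divided by the root of F. Of the 100 cytokine windows 96 were tested; both IFNA8 windows, CXCL16 and 1 CCL15 window held too few reads. Scripts were tested on simulated counts.

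Genes named were every member past the threshold, the 4 of lowest p on each side of each comparison besides, and a set list of 14 well-known cytokines, whatever their values. The members and lists were chosen with earlier results of these data known. Alternatives were DESeq2 1.42.0, other scalings, no filter, each library left out, a replicate block, the comparison's 4 libraries alone, no overlapping windows, chromosomes 10 and 12 left out, naming within 100 bp and symbols that only begin as the rule asks. Those without mitochondrial windows, and with naming within 2000 bp, were added after seeing the data. The planned GC correction was not run, since under 80% of windows matched a sequence (64.5% of all, 74.0% of the cytokine windows). Counting across overlapping windows (6 of the 100, against 18.7% of all) is not given in the sources used here; coverage profiles around genes were not used here.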

Additional observations from a re-analysis of the deposited data

How the results depend on the processing

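Among the cytokine windows, the count of 0 calls in KD, between KD and WT in OGAP and in input, and in the interaction held under every alternative run. The count of 11 in WT was 5 with DESeq2 and 5 to 11 with a library left out (5 without WT OGAP replicate 2 and 5 without WT input replicate 2). The WT count was higher under some alternatives, with 13 of 95 tested in the fit of only the 4 WT libraries and 12 of 94 without overlapping windows. It was 12 of 98 with symbols that only begin as the rule asks and 12 of 102 with naming within 2000 bp. It was 10 of 96 with upper quartile scaling, 10 of 93 without chromosomes 10 and 12, and 10 of 75 with naming within 100 bp. The median log2 change with a library left out ran from 0.11 to 0.27 for OGAP over input in KD (0.27 without KD input replicate 1), from 0.21 to 0.28 in WT, from -0.12 to 0.01 for KD against WT in OGAP (0.01 without WT OGAP replicate 1), from 0.07 to 0.19 in input (0.19 without WT input replicate 1), and from -0.26 to -0.07 for the interaction. With naming within 100 bp, the median for KD against WT in OGAP was 0.02. Over the same 100 windows, the summed level in KD input was 4844 CPM with DESeq2 size factors and 4974 with upper quartile scaling. Some sums cover other numbers of windows and differ for that reason. In KD input the sum was 4760 over the 94 windows that overlap no other and 4661 over the 97 outside chromosomes 10 and 12. It was 4860 over the 102 windows with symbols that only begin as the rule asks. In WT OGAP the sum was 5540 over the 100 windows with upper quartile scaling. Over the 97 windows outside chromosomes 10 and 12 it was 5561 in WT OGAP and 4481 in WT input. With the 78 windows named within 100 bp, it was 4344 in KD OGAP, 3670 in KD input, 4375 in WT OGAP and 3430 in WT input, a sum over fewer windows. Whether the replicate numbers pair the libraries is not stated in the labels. Deviations of same-numbered libraries correlated at -0.040 to 0.024. With counts this low, such values cannot exclude a pairing. The fit with the replicate number as a block gave 11 cytokine calls in WT, 10 higher and 1 lower, with a median log2 change of 0.16 in KD and 0.25 in WT. It ended the call of IL6R (edgeR adjusted p = 0.0511), as did leaving out overlapping windows (0.0502). Apart from the sums over other numbers of windows, the cause of these shifts was not tested. The block with a GC correction was not run. The counts of 18.5 to 35.0 reads in the median cytokine window limit what could be detected, and windows of under 10 reads in a library, such as CCL18 in WT OGAP, the most.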

Other observations

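For 6 further genes of the rule, a window lay more than 500 bp but within 2000 bp of the RefSeq start, so that its match to the gene is less certain; they were added after seeing the data. IL6, the main inducer of the acute-phase response, had 29 and 36 reads in KD OGAP against 21 and 30 in KD input, and in WT 21 and 18 in OGAP against 36 and 15 in input. Its log2 change of OGAP over input was 0.80 ± 0.40 in KD and 0.65 ± 0.43 in WT, and it passed in neither (edgeR adjusted p = 0.392 and 0.320). CXCL12, the ligand of CXCR4, had 27 and 20 reads in KD OGAP against 48 and 35 in KD input, and in WT 25 and 26 in OGAP against 45 and 49 in input. It did not pass either (-0.38 ± 0.36 in KD and 0.16 ± 0.35 in WT). IL17D, of the IL17 family, passed in WT, with read counts of 28 and 24 for OGAP and 33 and 14 for input (log2 change 1.18 ± 0.41, edgeR adjusted p = 0.0378). It lost the call without either WT OGAP library (0.195 and 0.0694 for replicates 1 and 2) or WT input replicate 2 (0.451), with upper quartile scaling (0.0552) and with DESeq2 (0.177). TNFSF4, IL37 and IFNA13 passed in no comparison.

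Some cytokine windows differed widely between libraries of a group. IFNK, an interferon of keratinocytes, had 4 and 29 reads in WT OGAP. Over the 96 tested windows, replicates differed by a median of 0.42 on the log2 scale in KD OGAP, 0.30 in KD input, 0.35 in WT OGAP and 0.35 in WT input, against 0.36 in KD OGAP, 0.30 in KD input, 0.41 in WT OGAP and 0.30 in WT input over all tested windows.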
